A study of Mus musculus with 8 samples.

Results

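The genes described here are 40 interferon response genes, followed across 4 kinds of sorted mouse CD4 T cells. They were found by gene symbol in the annotation of the array, which named a probe for 37 of them (60 probes) among 16593 genes in all. No probe carried the names Gbp6, Ifi44 or Dtx3l. Iigp1, Ifit1, Mx1, Xaf1 and Parp9 had probes that were detected (detection p under 0.01) on at most 1 array and were not tested. The remaining 32 genes were tested among 7926 genes: 9 interferon-gamma GTPases, 19 type I interferon genes and 4 transcription factors of the pathway. Of these 32, 30 were detected on all 8 arrays. Mx2 was detected on 5 arrays, and Gbp2b on the 4 Treg arrays alone, so that Gbp2b passed the filter only through Treg.

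The 4 groups were NIKtg Treg, WT Treg, NIKtg CD4 Tconv and WT CD4 Tconv, with 2 one-colour Illumina arrays each. Treg are regulatory T cells, which depend on the factor Foxp3 and restrain other T cells, and Tconv are the conventional CD4 T cells without Foxp3. NIK, the product of Map3k14, is the kinase that starts the noncanonical NF-kB pathway. The cells were sorted from bone marrow chimeras of mixed donors, all of C57BL/6 background, more than 8 weeks after reconstitution. The hosts were B6.CD45.1 mice given a lethal split dose of 1200 rads and marrow of a NIKtg/CD4Cre/foxp3RFP donor together with that of a B6.Thy1.1/Foxp3RFP donor. In NIKtg mice Map3k14 was inserted at the Rosa26 locus, CD4Cre stands for B6.Cg-Tg(CD4-Cre)1Cwi/BfluJ, and the red reporter that every cell carried was that of B6.Foxp3tm1Flv/J. Ages of the animals are not given in the sources used here. NIKtg cells were sorted as Thy1.1- CD4+ GFP+, WT cells as Thy1.1+ CD4+ GFP-, and RFP separated Treg from Tconv. The 2 genotypes therefore also differed in Cre, GFP and the Thy1 allele, and the transgene's part cannot be told apart from these. The Cd4 regulatory elements that drive Cre are active from T cell development in the thymus onwards. NIKtg and WT below mean the arrays so labelled.

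Interferon-gamma acts through its receptor and the kinases JAK1 and JAK2, and its target promoters often carry GAS elements. Type I interferons act through IFNAR and the complex ISGF3, which includes STAT2 and IRF9 and binds interferon-stimulated response elements (ISRE). The immunity-related GTPases (Igtp, Irgm1, Irgm2, Iigp1, Tgtp1, Ifi47) and the guanylate-binding proteins (Gbp2, Gbp2b, Gbp3, Gbp6, Gbp7) are classical interferon-gamma targets that attack the vacuoles of intracellular pathogens. Genes such as Isg15, Ifit2 and Mx2 are classical type I targets that block viral replication. Many genes of either class respond to both kinds of interferon. In T cells such genes are also held up by low, standing interferon signals.

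Promoters of 5 GTPase genes are shown: those of Igtp, Tgtp1 and Irgm2, the GTPases with the largest negative differences in Tconv, and those of Gbp2b and Gbp3, the GTPases lower in NIKtg Treg. They are RefSeq windows of the build GRCm38.p6, with 250 bases before and 50 after the annotated start, read 5′ to 3′ on the strand of the gene. Capitals mark matches, on either strand, to a GAS (TTCNNNGAA) or to an ISRE core (GAAANNGAAA). Igtp lies at chr11:58199306-58199605 on the plus strand, Irgm2 at chr11:58214727-58215026 on the plus strand and Tgtp1 at chr11:48992197-48992496 on the minus strand. Gbp2b lies at chr3:142594597-142594896 and Gbp3 at chr3:142559794-142560093, both on the plus strand.
Igtp: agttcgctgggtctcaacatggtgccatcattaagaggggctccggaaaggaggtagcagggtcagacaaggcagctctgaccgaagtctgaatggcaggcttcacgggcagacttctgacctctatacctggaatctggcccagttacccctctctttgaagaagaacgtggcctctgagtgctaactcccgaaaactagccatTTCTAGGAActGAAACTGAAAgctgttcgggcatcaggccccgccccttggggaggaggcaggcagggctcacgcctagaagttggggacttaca
Irgm2: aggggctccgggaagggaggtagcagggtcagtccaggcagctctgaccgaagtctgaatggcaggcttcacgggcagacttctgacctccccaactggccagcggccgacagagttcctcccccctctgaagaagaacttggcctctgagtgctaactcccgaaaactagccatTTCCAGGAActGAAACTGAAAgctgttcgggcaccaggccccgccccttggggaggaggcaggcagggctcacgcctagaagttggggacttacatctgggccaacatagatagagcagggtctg
Tgtp1: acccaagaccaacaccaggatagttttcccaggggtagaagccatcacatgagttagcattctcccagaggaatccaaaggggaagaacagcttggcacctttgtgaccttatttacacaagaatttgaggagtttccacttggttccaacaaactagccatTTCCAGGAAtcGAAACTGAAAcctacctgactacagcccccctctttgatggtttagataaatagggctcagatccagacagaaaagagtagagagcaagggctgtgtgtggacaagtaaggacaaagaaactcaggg
Gbp2b: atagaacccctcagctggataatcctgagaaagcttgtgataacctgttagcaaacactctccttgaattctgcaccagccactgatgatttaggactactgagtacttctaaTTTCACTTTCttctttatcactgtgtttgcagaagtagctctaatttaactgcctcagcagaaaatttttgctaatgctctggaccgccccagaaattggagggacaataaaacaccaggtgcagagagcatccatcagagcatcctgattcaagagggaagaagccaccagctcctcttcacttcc
Gbp3: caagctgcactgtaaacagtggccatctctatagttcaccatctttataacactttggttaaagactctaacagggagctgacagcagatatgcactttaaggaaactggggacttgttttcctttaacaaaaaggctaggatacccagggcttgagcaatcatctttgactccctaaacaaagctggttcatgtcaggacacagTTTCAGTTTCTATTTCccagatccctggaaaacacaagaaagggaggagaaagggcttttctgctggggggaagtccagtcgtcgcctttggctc

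Igtp, Irgm2 and Tgtp1 held the same arrangement, a GAS followed after 2 bases by an ISRE core. The GAS began 45, 75 and 88 bases before the start in Igtp, Irgm2 and Tgtp1, and the ISRE core 34, 64 and 77 bases before it. This joint pattern, looked for after it had been seen in these windows, was present in 5 of 32851 promoter windows (0.0152%), those of Igtp, Irgm2, Tgtp1, Tgtp2 and Gm12185. The Igtp and Irgm2 windows also match over long stretches outside the motifs, and Tgtp2 is a near-identical copy of Tgtp1. These windows are therefore not independent occurrences of the pattern. Gbp2b held an ISRE core 137 bases before the start and Gbp3 held overlapping ones 45 and 39 bases before it, and neither window held a GAS. A second annotated start of Gbp3 held neither motif. Promoters were given for 27 of the 32 tested genes. An ISRE core was present in 15 of these 27 and a GAS in 9, against 3.99% and 9.55% of all 27025 genes in the promoter table. Among the 9 tested GTPase genes, 8 held an ISRE core (Ifi47 held none) and 4 held a GAS (Igtp, Irgm2, Tgtp1, Gbp7). Among 14 type I genes, 6 held an ISRE core and 4 a GAS. In Bst2 a GAS match overlapped an ISRE match. A match is a description of the letters and not evidence of binding.

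Mean unnormalized intensity per array was 461 and 474 in NIKtg Treg, 565 and 566 in WT Treg, 618 and 777 in NIKtg Tconv, and 557 and 667 in WT Tconv, with 9826 to 10794 probes detected. Arrays correlated at 0.989 to 0.994 within groups and at 0.923 to 0.973 between groups. The log2 intensity of Map3k14 was 9.65 and 9.76 in NIKtg Treg against 9.61 and 9.63 in WT Treg (adjusted p = 0.579), and 9.60 and 9.59 in NIKtg Tconv against 10.20 and 10.03 in WT Tconv (adjusted p = 0.0102, lower). This probe thus did not show the transgene, and the sources used here do not give the part of the transcript it reads. Nfkb2, a target of the noncanonical pathway, was higher in NIKtg Treg than in WT Treg (1.02 on the log2 scale, SE 0.11, adjusted p = 0.00198) and in NIKtg Tconv than in WT Tconv (1.46, SE 0.11, adjusted p = 0.000291). Foxp3 read 13.19 and 13.36 in NIKtg Treg, 13.48 and 13.57 in WT Treg, 6.07 and 7.01 in NIKtg Tconv, and 8.05 and 8.82 in WT Tconv. Of the defining markers of other cells, Cd8a, Ncr1, Gzma, Pax5, Itgam, Itgax, Clec9a and Ccr9 were detected on no array, while others of the same lists, such as Cd8b1, Nkg7, Cd79b, Lyz1, Cst3 and Siglech, were detected on all 8. The filter was passed by 5 of 8 listed CD8 and NK cell markers, 3 of 8 B cell, 6 of 11 myeloid and dendritic cell, 5 of 6 plasmacytoid dendritic cell and 1 of 6 erythroid and platelet markers. Whether the 2 arrays of a group stand for different animals is not in the labels, and every p-value therefore reflects the scatter of these arrays alone, which may be technical. In sorted bulk cells, fewer cells of a kind and less RNA per cell cannot be told apart.

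In conventional T cells 4 of the 5 tested immunity-related GTPase genes were lower in NIKtg cells than in WT cells, and Irgm1 did not pass. Igtp and Tgtp1 were about 3.2-fold lower and Irgm2 2.09-fold lower, and the type I genes Oasl1, Usp18 and Zbp1 were lower with them. Gbp3 and Ifi35 moved the other way and were higher in NIKtg Tconv. Of the 32 tested genes, 2 were higher and 13 lower at an adjusted p under 0.05 (limma, Benjamini-Hochberg over 7926 genes), where 12.9% of all genes tested were higher and 17.2% lower (30.1% in either direction). The 13 include Gbp2b, which was below detection on all 4 Tconv arrays. The median log2 difference was -0.33 over the 32 genes, -0.17 over the 19 type I genes and -0.08 over all genes tested. Over the 9 GTPases it was -0.65, which is the value of Gbp2b and so was not measured. Over the 8 GTPases without Gbp2b it was -0.72. With median centring the median was -0.19 over the 32 genes, 0.05 over the type I genes and 0.09 over all genes. That of the 9 GTPases was then -0.72, again the value of Gbp2b. By array, the log2 intensity of Igtp, an immunity-related GTPase of the endoplasmic reticulum, was 10.39 and 10.75 in NIKtg Tconv against 12.39 and 12.11 in WT Tconv. Both NIKtg Tconv arrays lay below both WT Tconv arrays by more than the spread within either group (log2 difference -1.68, SE 0.17, adjusted p = 0.000661).

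**Figure D1:**
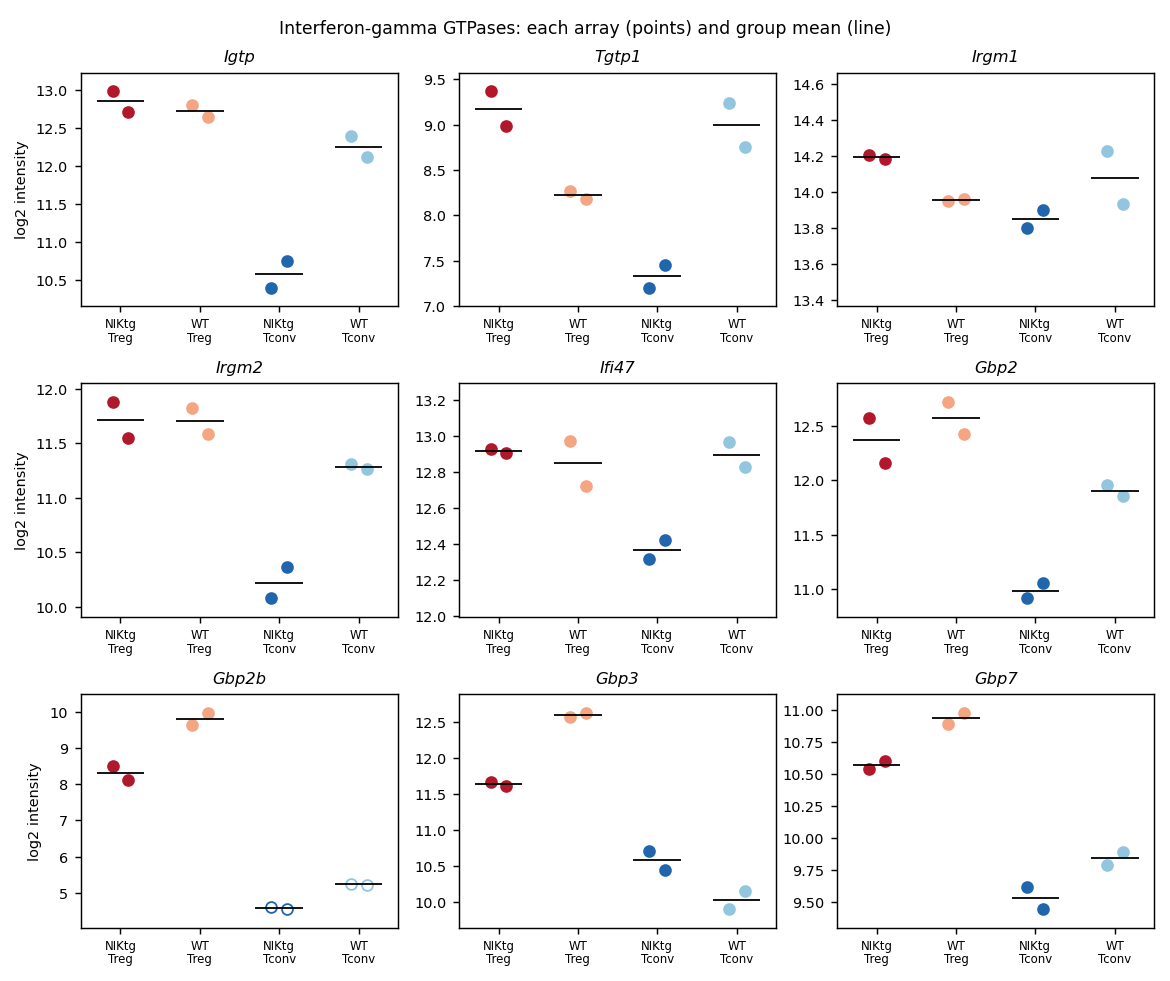
Log2 intensity of the 9 tested interferon-gamma GTPase genes on each array (points) with the mean of each group (line). Open points are arrays on which the probe was not detected. NIKtg Tconv lay lowest for Igtp, Tgtp1, Irgm2, Ifi47 and Gbp2, while Gbp3 was highest in WT Treg and lowest in WT Tconv.

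Tgtp1, an effector GTPase of the same family, read 7.20 and 7.45 in NIKtg Tconv and 9.24 and 8.75 in WT Tconv (-1.67, SE 0.20, adjusted p = 0.00126). Its near-identical copy Tgtp2 could add to this signal, since the sources used here do not give the probe's target. Irgm2, a regulatory member of the family, read 10.08 and 10.37 in NIKtg Tconv and 11.31 and 11.27 in WT Tconv (-1.07, SE 0.16, adjusted p = 0.00293). In both genes the groups were well apart. Ifi47, also called Irg47, read 12.32 and 12.43 in NIKtg Tconv and 12.97 and 12.83 in WT Tconv, a smaller difference (-0.53, SE 0.12, adjusted p = 0.016). Irgm1, the regulatory member that protects the cell's own membranes, read 13.80 and 13.90 in NIKtg Tconv and 14.23 and 13.93 in WT Tconv and did not pass (-0.23, SE 0.12, adjusted p = 0.19). Of the 5 tested immunity-related GTPases, 4 were lower in NIKtg Tconv and none was higher, with a median of -1.07. The calls of Igtp, Tgtp1 and Irgm2 held under every alternative run for them. That of Ifi47 was lost with median centring (-0.44, adjusted p = 0.143), without NIKtg Tconv array 1 (adjusted p = 0.101) and without WT Tconv array 1 (adjusted p = 0.0903).

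The guanylate-binding proteins did not move together in Tconv. Gbp2, which coats pathogen vacuoles, read 10.92 and 11.06 in NIKtg Tconv and 11.95 and 11.85 in WT Tconv (-0.91, SE 0.17, adjusted p = 0.00638). Gbp3 read 10.71 and 10.45 in NIKtg Tconv and 9.91 and 10.16 in WT Tconv, so that it was 1.46-fold higher (0.55, SE 0.13, adjusted p = 0.0201). Both NIKtg arrays lay above both WT arrays for Gbp3 and below both for Gbp2. Gbp7 read 9.62 and 9.45 in NIKtg Tconv and 9.79 and 9.90 in WT Tconv and did not pass (-0.31, adjusted p = 0.0672). Gbp2b read 4.62 and 4.55 in NIKtg Tconv and 5.25 and 5.22 in WT Tconv, all below detection, so no fold is given. The call of Gbp2 was lost in the mean over its probes (-0.31, adjusted p = 0.235) and without NIKtg Tconv array 1 (adjusted p = 0.0547). That of Gbp3 was lost without NIKtg Tconv array 1 (adjusted p = 0.126) and without WT Tconv array 1 (adjusted p = 0.113).

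Among the 19 type I genes, 6 were lower and 1 higher in NIKtg Tconv (36.84% in either direction, against 30.1% of all genes tested). Oasl1, an oligoadenylate synthetase-like protein that in the mouse holds back the translation of Irf7, read 5.82 and 6.21 in NIKtg Tconv and 7.47 and 7.32 in WT Tconv (-1.38, SE 0.19, adjusted p = 0.00208). Usp18, the protease that removes Isg15 from proteins and damps the type I receptor, read 9.23 and 8.96 in NIKtg Tconv and 10.33 and 10.13 in WT Tconv (-1.14, SE 0.17, adjusted p = 0.00311). Zbp1, a sensor of Z-form nucleic acids that can start cell death, read 7.80 and 8.01 in NIKtg Tconv and 9.05 and 8.73 in WT Tconv (-0.99, SE 0.15, adjusted p = 0.00339). For each of these 3 genes both WT arrays lay well above both NIKtg arrays. Ifit2, which binds viral RNA, read 9.84 and 10.13 in NIKtg Tconv and 10.73 and 10.72 in WT Tconv (-0.74, SE 0.13, adjusted p = 0.00626). Ifi35, a partner of Nmi in the type I response, read 8.80 and 8.88 in NIKtg Tconv and 8.15 and 8.33 in WT Tconv (0.60, SE 0.15, adjusted p = 0.0216). Ifi35 was thus the exception in its class, with both NIKtg arrays above both WT arrays.

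The other lower calls of this class were weaker. Mx2, a dynamin-like GTPase, read 5.61 and 5.29 in NIKtg Tconv, detected on 1 of these arrays, and 6.44 and 6.00 in WT Tconv, at least 1.55-fold lower (adjusted p = 0.0246). Adar, the editor of double-stranded RNA, read 8.41 and 8.58 in NIKtg Tconv and 8.84 and 8.90 in WT Tconv (-0.38, SE 0.12, adjusted p = 0.0487), and 12 of 18 alternatives lost this call. The calls of Oasl1 and Zbp1 held under every alternative run for them. That of Usp18 was lost in the mean over its probes (-0.54, adjusted p = 0.0549) and that of Ifit2 with median centring (-0.60, adjusted p = 0.051). Those of Ifi35 and Mx2 were lost without NIKtg Tconv array 1, NIKtg Tconv array 2 or WT Tconv array 1, at adjusted p of 0.0566 to 0.137. Of type I genes that did not pass, Oasl2 (-0.47, adjusted p = 0.142) and Samd9l (-0.36, adjusted p = 0.0627) had the largest differences.

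Of the transcription factors, Irf9, the DNA-binding subunit of ISGF3, read 10.48 and 10.68 in NIKtg Tconv and 11.14 and 11.09 in WT Tconv (-0.54, SE 0.11, adjusted p = 0.0105). Both NIKtg arrays lay below both WT arrays. The call was lost with median centring (-0.41, adjusted p = 0.179), in the mean over its probes (-0.13, adjusted p = 0.392), without NIKtg Tconv array 1 (adjusted p = 0.0756) and without WT Tconv array 1 (adjusted p = 0.0568). Irf7, which amplifies type I interferon, read 7.66 and 7.80 in NIKtg Tconv and 8.53 and 8.24 in WT Tconv and did not pass (-0.65, SE 0.24, adjusted p = 0.0797). Irf1, an early interferon-gamma target, gave -0.29 (adjusted p = 0.152), and Stat2, the ISGF3 subunit, -0.16 (adjusted p = 0.513).

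Markers of other cells also differed between the Tconv groups. Of 8 listed CD8 and NK cell markers, 5 were tested, and their summed intensity was 12888 to 16589 in NIKtg Tconv, 4226 to 7556 in WT Tconv, 1757 to 1939 in NIKtg Treg and 1737 to 1766 in WT Treg. Nkg7, a granule protein of cytotoxic cells, was higher (2.44, SE 0.38, adjusted p = 0.00354) and read 13.77 and 13.36 in NIKtg Tconv against 10.53 and 11.72 in WT Tconv. Klrb1c and Cd8b1 went the other way and were lower in NIKtg Tconv (Klrb1c at least 6.33-fold, Cd8b1 by -1.25 on the log2 scale), while Xcl1 was higher (1.23) and Klrd1 lower (-1.23). Klrb1c was detected on the WT Tconv arrays alone, so it passed the filter only through them and is no independent support. Of 6 tested myeloid markers, Adgre1, Fcer1g and Tyrobp were lower in NIKtg Tconv, Lyz2, Lyz1 and Cst3 did not pass (-0.28, -0.47 and 0.28), and the sum was 2322 to 2576 in NIKtg Tconv against 2302 to 2364 in WT Tconv. All 3 tested B cell markers passed, Cd74 higher (1.70) and Cd79b (-0.59) and Fcmr lower, with a sum of 1404 to 1484 in NIKtg Tconv against 499 to 630.5 in WT Tconv. Of 5 Treg markers, Foxp3 (-1.89), Il2ra (-1.89) and Ikzf2 (-0.64) were lower in NIKtg Tconv. Il2ra was detected on only 1 of the NIKtg Tconv arrays. The sum of the 5 was 2404 to 2483 in NIKtg Tconv against 2509 to 2741 in WT Tconv. Of 5 plasmacytoid dendritic cell markers Cox6a2 was higher and Siglech lower (-0.53). Cox6a2 read 6.41 and 5.81 in NIKtg Tconv and 4.54 and 4.58 in WT Tconv, where it was below detection, so no fold is given. Cox6a2 was detected on the NIKtg Tconv arrays alone, and it too passed the filter only through the group where it was high. The part of such cells in the interferon genes was not tested. Without NIKtg Tconv array 1, 7 of the 32 genes passed in this comparison (0 higher, 7 lower), and without WT Tconv array 1, 8 passed (0 higher, 8 lower).

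**Figure D2:**
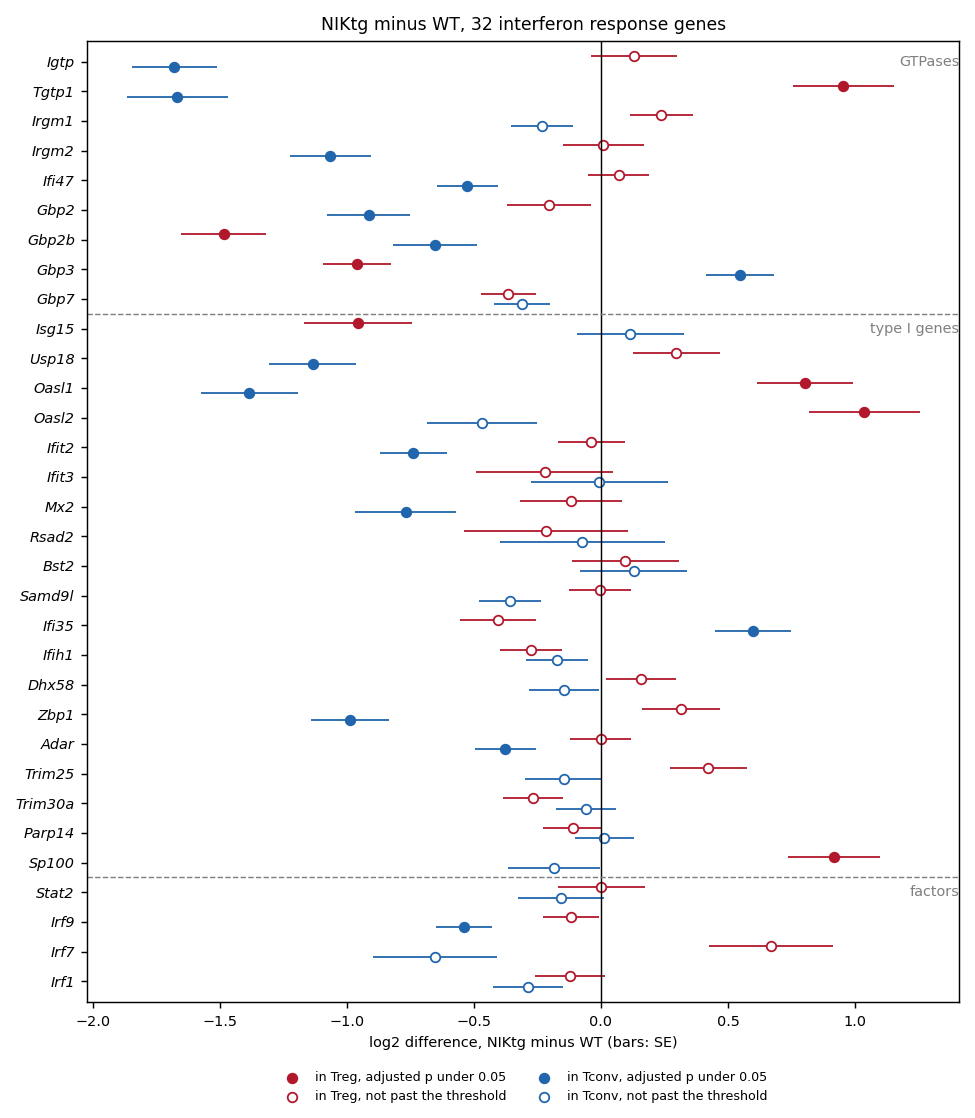
Log2 difference of NIKtg minus WT (bars, SE) for the 32 tested genes, in Treg (red) and in Tconv (blue). Filled points passed an adjusted p of 0.05. Most blue points lie left of 0, with Gbp3 and Ifi35 as filled exceptions, while the red points lie on both sides.

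In Treg the interferon genes split. Tgtp1, Oasl2, Sp100 and Oasl1 were 1.75-fold to 2.05-fold higher in NIKtg Treg than in WT Treg, and Gbp2b, Gbp3 and Isg15 were lower. Of the 32 genes, 4 were higher and 3 lower, where 10.4% of all genes tested were higher and 9.45% lower, so the share of the interferon genes past the threshold, 7 of 32, was near that of all genes (19.9%). The median log2 difference was -0.0026 over the 32 genes and 0.0093 over the 9 GTPases, against 0.06 over all genes tested. With median centring in place of quantile normalization, the median of all genes was -0.27, and 1 of the 32 genes was higher and 7 were lower.

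Both guanylate-binding proteins that passed were lower. Gbp2b read 8.50 and 8.11 in NIKtg Treg and 9.62 and 9.97 in WT Treg, so that it was 2.8-fold lower (-1.49, SE 0.17, adjusted p = 0.00204). Gbp3 read 11.67 and 11.61 in NIKtg Treg and 12.57 and 12.63 in WT Treg (-0.96, SE 0.13, adjusted p = 0.00411). For both genes each group's arrays lay close together and far from the other group's, and both calls held under every alternative run for them. Gbp7, another member of the family, read 10.54 and 10.60 in NIKtg Treg and 10.89 and 10.98 in WT Treg and did not pass (-0.36, SE 0.11, adjusted p = 0.0532). Gbp2 gave -0.20 (adjusted p = 0.406). All 4 guanylate-binding proteins thus had a negative difference, with a median of -0.66. Isg15, the ubiquitin-like modifier that marks the type I response, read 6.76 and 6.56 in NIKtg Treg and 7.86 and 7.37 in WT Treg (-0.96, SE 0.21, adjusted p = 0.0206).

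No immunity-related GTPase was lower past the threshold in NIKtg Treg. Tgtp1 read 9.37 and 8.98 in NIKtg Treg and 8.27 and 8.18 in WT Treg (0.95, SE 0.20, adjusted p = 0.0171), the opposite direction to Tconv. Igtp read 12.98 and 12.71 in NIKtg Treg and 12.79 and 12.63 in WT Treg (0.13, adjusted p = 0.611), and the arrays of the groups interleaved. Irgm2 (0.01, adjusted p = 0.973), Ifi47 (0.07, adjusted p = 0.713) and Irgm1 (0.24, adjusted p = 0.203) did not pass either. Of the type I genes, Oasl2, a second oligoadenylate synthetase-like protein, read 9.80 and 9.19 in NIKtg Treg and 8.61 and 8.31 in WT Treg (1.04, SE 0.22, adjusted p = 0.0178). Oasl1 read 7.68 and 7.20 in NIKtg Treg and 6.69 and 6.58 in WT Treg (0.80, SE 0.19, adjusted p = 0.0251). Sp100, a protein of PML nuclear bodies, read 9.61 and 9.19 in NIKtg Treg and 8.45 and 8.52 in WT Treg (0.92, SE 0.18, adjusted p = 0.0145). In these 3 genes NIKtg Treg array 1 was the higher of the NIKtg Treg pair.

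These smaller calls rested on few arrays. Without NIKtg Treg array 1, WT Treg array 1 or WT Treg array 2 in turn, Tgtp1, Oasl2, Oasl1 and Sp100 did not pass (adjusted p of 0.0534 to 0.12), and 3, 2 and 3 of the 32 genes passed in all. Tgtp1 (0.57, adjusted p = 0.0653), Sp100 (0.54, adjusted p = 0.0638) and Oasl1 (0.30, adjusted p = 0.356) also did not pass with median centring, and Oasl2 did not with only the compared groups in the fit (adjusted p = 0.0503). Isg15 was lost without NIKtg Treg array 1 (adjusted p = 0.0572), NIKtg Treg array 2 (adjusted p = 0.0601) or WT Treg array 1 (adjusted p = 0.115). No transcription factor passed. Irf7 gave 0.67 (SE 0.24, adjusted p = 0.092), with 8.72 and 7.92 in NIKtg Treg and 7.72 and 7.57 in WT Treg, Irf1 gave -0.12 (adjusted p = 0.552), Irf9 -0.12 (adjusted p = 0.476) and Stat2 0.00 (adjusted p = 0.997). Trim25, a ubiquitin ligase of RNA sensing (0.42, adjusted p = 0.0895), and Ifi35 (-0.40, adjusted p = 0.0962) were the largest type I differences that did not pass. In the same comparison the myeloid markers Adgre1, Fcer1g and Tyrobp were lower, Lyz2 (0.59), Lyz1 (0.47) and Cst3 (-0.34) did not pass, and the summed intensity of 6 tested myeloid and dendritic cell markers was 2767 to 2992 in NIKtg Treg against 3435 to 3612 in WT Treg. All 3 tested B cell markers passed, Cd74 higher (1.05) and Cd79b (-0.47) and Fcmr (-1.65) lower, with a sum of 3628 to 3980 in NIKtg Treg against 2237 to 2603 in WT Treg. The sum of the 5 plasmacytoid dendritic cell markers was 866 to 909 in NIKtg Treg against 628 to 645 in WT Treg. Of these Cox6a2 was below detection on every Treg array. Siglech, Tcf4 and Bst2 had positive differences that did not pass, and the arrays of the groups overlapped for Bst2. Ly6d passed. It read 7.44 and 7.30 in NIKtg Treg and 4.99 and 5.42 in WT Treg, where it was below detection, so no fold is given. Ly6d was detected on the NIKtg Treg arrays alone, so it passed the filter only through them and is no independent support. The Treg markers Ctla4 (-0.97) and Tnfrsf18 (-1.01) and the T cell markers Cd3g (-0.51) and Cd5 (-0.63) were lower in NIKtg Treg. Their part in the interferon genes was not tested.

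**Figure D3:**
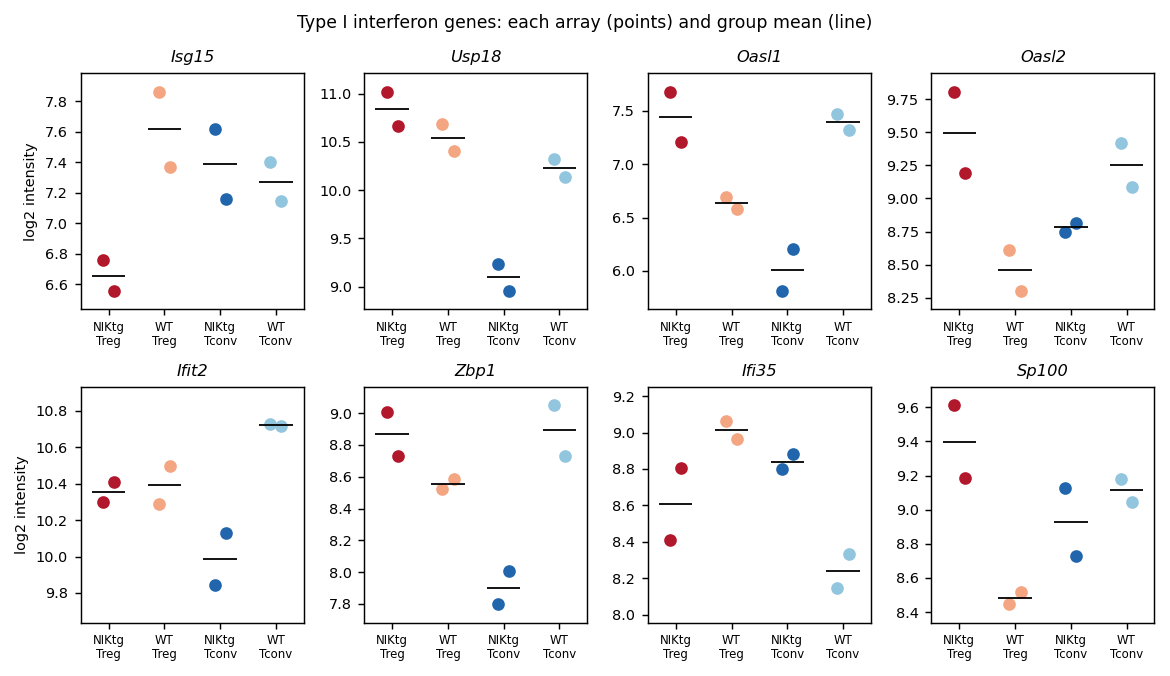
Log2 intensity of 8 type I interferon genes on each array (points) with the mean of each group (line). Isg15 was lowest in NIKtg Treg, Usp18, Oasl1, Ifit2 and Zbp1 were lowest in NIKtg Tconv, and Ifi35 was lowest in WT Tconv.

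The difference between the NIK effects was tested directly, as the NIKtg minus WT difference in Treg less that in Tconv. It was positive and past the threshold for 12 of the 32 genes and negative for 4, where 23% of all genes tested were positive and 16.1% negative (39.2% in either direction). The largest were Tgtp1 (2.62, SE 0.28, adjusted p = 0.000822), Oasl1 (2.19, SE 0.27, adjusted p = 0.00128) and Igtp (1.81, SE 0.24, adjusted p = 0.00166). Gbp3 went the other way (-1.51, SE 0.19, adjusted p = 0.00143), as did Ifi35 (-1.005, SE 0.21, adjusted p = 0.00937). These 5 calls and that of Oasl2 held under every alternative run for them. Of the 5 immunity-related GTPases, 4 had a positive difference past the threshold, and of the 4 guanylate-binding proteins Gbp2 had a positive and Gbp3 a negative one. Gbp2b was negative as well, but it was below detection on every Tconv array and entered the test only through Treg. Without Gbp2b, 12 of 31 genes were positive and 3 negative. The call of Ifi47 was lost with median centring (0.34, adjusted p = 0.405) and without the detection filter (0.60, adjusted p = 0.0529). That of Irgm2 was lost with median centring (0.69, adjusted p = 0.103). The call of Usp18 was lost in the mean over its probes (0.0135, adjusted p = 0.97), and Usp18 and Gbp2 each had a probe past the threshold in the direction opposite to the brightest one. With median centring, 5 genes were positive and 5 negative, where 31.8% of all genes passed and 14.76% of those were positive, and the median of the 32 genes less that of all genes was 0.34, against 0.25 with quantile normalization. Without NIKtg Tconv array 1, 8 were positive and 2 negative. Among the transcription factors Irf7 passed (1.32, SE 0.34, adjusted p = 0.0203), and this was lost with median centring (0.68, adjusted p = 0.127), without WT Treg array 2 (adjusted p = 0.0639), without NIKtg Tconv array 1 (adjusted p = 0.0709) and without WT Tconv array 1 (adjusted p = 0.0667).

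Among WT cells, Gbp2, Gbp3 and Gbp7 were higher in Treg than in Tconv, and Gbp2b was detected in Treg only. Gbp3 was 5.91-fold higher, at 12.57 and 12.63 in WT Treg against 9.91 and 10.16 in WT Tconv (2.56, SE 0.13, adjusted p = 3.98e-05). Gbp7 read 10.89 and 10.98 in WT Treg and 9.79 and 9.90 in WT Tconv (1.09, SE 0.11, adjusted p = 0.000511), and Gbp2 read 12.72 and 12.42 in WT Treg and 11.95 and 11.85 in WT Tconv (0.67, SE 0.17, adjusted p = 0.0244). Gbp2b, detected on both WT Treg arrays and on neither WT Tconv array, was at least 17.8-fold higher (adjusted p = 1.92e-05), but it entered the test only through its Treg arrays and is no independent support. For these 4 genes the lower WT Treg array lay above the higher WT Tconv array. The immunity-related GTPases did not share this. Tgtp1 was lower in WT Treg (-0.77, SE 0.20, adjusted p = 0.0279), Igtp (0.46, adjusted p = 0.0846) and Irgm2 (0.42, adjusted p = 0.0959) did not pass, and Irgm1 (-0.13) and Ifi47 (-0.05) were close to 0. In all, 6 of the 32 genes were higher and 4 lower in WT Treg, where 11.1% of all genes tested were higher and 12.9% lower (24% in either direction). Without Gbp2b, 5 of 31 were higher and 4 lower.

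Of the type I genes, Ifi35 (0.77, SE 0.15, adjusted p = 0.00928) and Parp14, an ADP-ribosyltransferase (0.47, SE 0.12, adjusted p = 0.0231), were higher in WT Treg. Oasl2 (-0.79, SE 0.22, adjusted p = 0.0356), Oasl1 (-0.76, SE 0.19, adjusted p = 0.0255) and Sp100 (-0.63, SE 0.18, adjusted p = 0.0403) were lower. No transcription factor passed, and Irf7 gave -0.74 (adjusted p = 0.0654) and Irf1 0.16 (adjusted p = 0.446). The calls of Gbp2b, Gbp3 and Gbp7 held under every alternative run for them, while each of the other 7 was lost when at least 1 array was left out. Without WT Treg array 1, 3 genes passed, without WT Treg array 2, 5, without WT Tconv array 1, 4, and without WT Tconv array 2, 6. Gbp2 and Parp14 were also lost with median centring (adjusted p of 0.0893 and 0.242), where 4 genes were higher and 5 lower. In WT Treg the 5 tested CD8 and NK cell markers were all lower than in WT Tconv, though Klrb1c passed the filter only through its WT Tconv arrays. The B cell markers Cd74, Cd79b and Fcmr were higher. The part of these cell markers in the differences above was not tested.

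Among NIKtg cells the subset difference took in both GTPase families. Of the 8 GTPases other than Gbp2b, 7 were higher in NIKtg Treg than in NIKtg Tconv and none was lower, with a median log2 difference of 1.22. Gbp2b, which entered the test only through its Treg arrays, was higher too. Over the 32 genes, 16 were higher and 1 lower (15 and 1 of 31 without Gbp2b), where 23.1% of all genes tested were higher and 16.9% lower (39.9% in either direction), and the median was 0.42 against 0.08 over all genes tested. Igtp was 4.83-fold higher, at 12.98 and 12.71 in NIKtg Treg against 10.39 and 10.75 in NIKtg Tconv (2.27, SE 0.17, adjusted p = 0.00011). Irgm2 read 11.88 and 11.55 in NIKtg Treg and 10.08 and 10.37 in NIKtg Tconv (1.49, SE 0.16, adjusted p = 0.000448). Gbp7 was higher (1.04, SE 0.11, adjusted p = 0.000426), and Gbp2b was at least 6.79-fold higher (adjusted p = 2.58e-05). The other 4 GTPases past the threshold were Tgtp1 (1.85), Gbp2 (1.38), Gbp3 (1.06) and Ifi47 (0.55), at adjusted p of 0.00046 to 0.01, and Irgm1 did not pass (0.34, adjusted p = 0.0579).

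**Figure D4:**
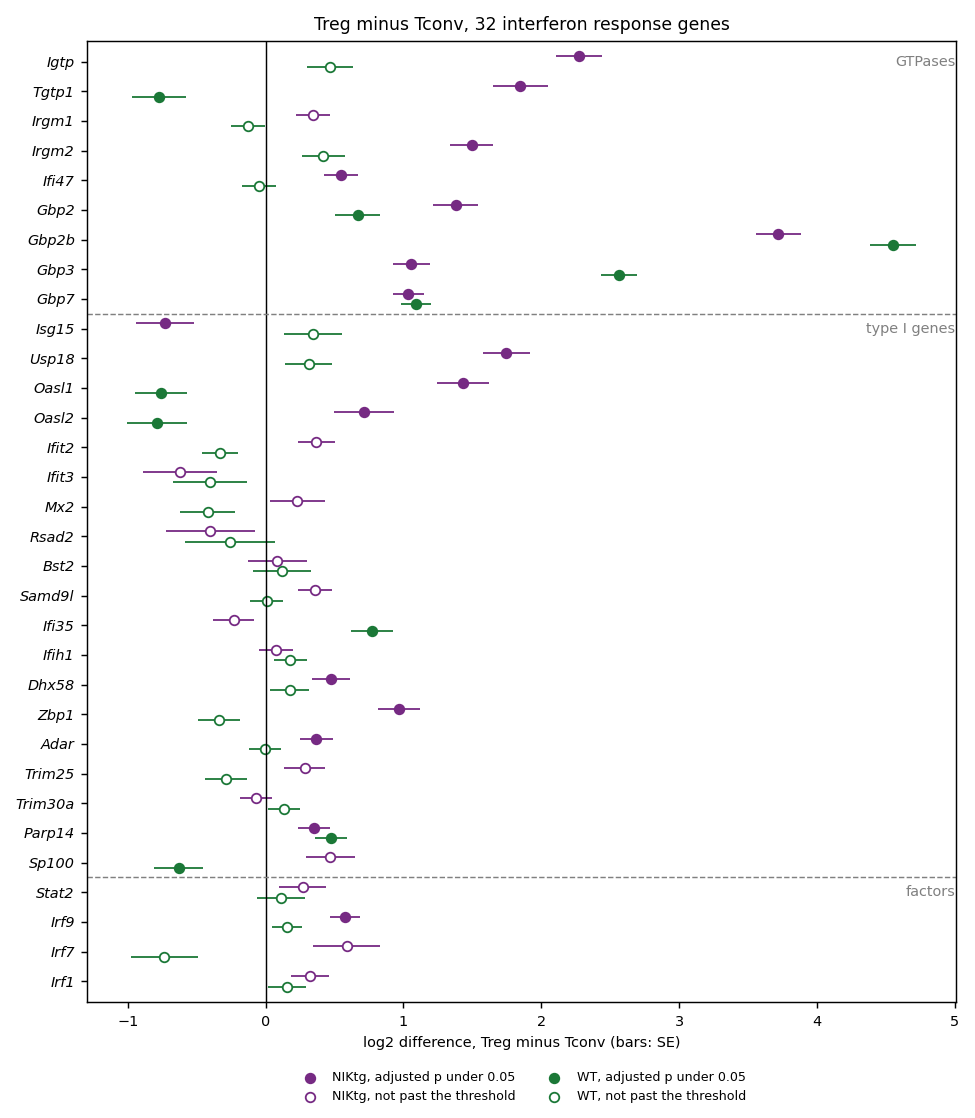
Log2 difference of Treg minus Tconv (bars, SE) for the 32 tested genes, in NIKtg cells (purple) and in WT cells (green). Filled points passed an adjusted p of 0.05. Gbp2b, Gbp3, Gbp7 and Gbp2 lie right of 0 in both, while Igtp, Irgm2, Tgtp1, Usp18 and Oasl1 lie right of 0 with filled points in NIKtg cells.

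Of the 19 type I genes, 7 were higher and 1 lower in NIKtg Treg than in NIKtg Tconv. Of all genes tested, 23.1% were higher and 16.9% lower. The share of type I genes past the threshold in either direction, 42.11%, was near that of all genes (39.9%). Usp18 read 11.02 and 10.66 in NIKtg Treg and 9.23 and 8.96 in NIKtg Tconv (1.75, SE 0.17, adjusted p = 0.000321). Oasl1 (1.43, SE 0.19, adjusted p = 0.00115) and Zbp1 (0.96, SE 0.15, adjusted p = 0.00247) were higher, as was Dhx58, the RNA helicase LGP2 (0.48, SE 0.14, adjusted p = 0.0284). Oasl2 (0.72), Adar (0.37) and Parp14 (0.35) made up the rest of the 7, at adjusted p of 0.0339 to 0.0453. Isg15 alone was lower, at 6.76 and 6.56 in NIKtg Treg against 7.62 and 7.16 in NIKtg Tconv (-0.73, SE 0.21, adjusted p = 0.0286). Irf9 was higher (0.58, SE 0.11, adjusted p = 0.00562), and Irf7 was not called (0.59, SE 0.24, adjusted p = 0.09). Ifit3 (-0.62, adjusted p = 0.103) and Sp100 (0.47, adjusted p = 0.072) did not pass.

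Normalization changed the split between higher and lower calls. With median centring the median of all genes was -0.47, against 0.08 with quantile normalization, and 9 genes were then higher and 7 lower, in place of 16 and 1. Relative to the median of all genes, the median of the 9 GTPases was 1.30 under quantile normalization and 1.38 under median centring. These 9 include Gbp2b. With only genes detected on all 8 arrays, which leaves Gbp2b out, it was 1.13 under quantile normalization. The calls of Igtp, Irgm2, Gbp7 and Oasl1 held under every alternative run for them. That of Gbp2b held where it was tested, but Gbp2b entered the test only through its Treg arrays. Usp18 was lost where every kept probe had to pass in 1 direction, since its dimmest probe passed in the opposite one. Zbp1 was lost with median centring (0.35, adjusted p = 0.163), Irf9 with median centring (0.08, adjusted p = 0.774) and in the mean over its probes (0.06, adjusted p = 0.669), and Dhx58 reversed with median centring (-0.12, adjusted p = 0.613). Dhx58 was also lost without NIKtg Treg array 1 or NIKtg Tconv array 2 (adjusted p = 0.149 for each). Isg15 was lost without NIKtg Treg array 1 (adjusted p = 0.0572), NIKtg Treg array 2 (adjusted p = 0.0987) or NIKtg Tconv array 1 (adjusted p = 0.166). The summed intensity of the 5 tested CD8 and NK cell markers, given above, was higher in NIKtg Tconv than in NIKtg Treg. Of these markers 3 were lower in NIKtg Treg, while Cd8b1 was higher there (9.82 and 9.98, against 8.82 and 9.17 in NIKtg Tconv). The summed intensity of 3 tested B cell markers was 3628 to 3980 in NIKtg Treg against 1404 to 1484 in NIKtg Tconv. Their part in these differences was not tested.

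Of the 32 tested genes, 22 (68.8%) passed in at least 1 of the 5 comparisons, against 58.7% of all genes tested. Irgm1, Bst2, Ifih1, Ifit3, Rsad2, Samd9l, Trim25, Trim30a, Stat2 and Irf1 passed in none. Bst2, or tetherin, which holds budding virus at the cell surface, read 7.51 and 7.59 in NIKtg Treg, 7.66 and 7.25 in WT Treg, 7.77 and 7.16 in NIKtg Tconv, and 7.35 and 7.32 in WT Tconv, so that all pairs of groups compared here overlapped. Rsad2, or viperin, an antiviral enzyme, ranged from 6.60 to 7.75 over the 8 arrays and also overlapped in each comparison. Ifih1, the RNA sensor MDA5, read 7.25 and 7.04 in NIKtg Treg, 7.47 and 7.37 in WT Treg, 7.05 and 7.08 in NIKtg Tconv, and 7.35 and 7.14 in WT Tconv. Trim30a, a regulator of innate signalling, had differences of -0.27 to 0.14 between the groups, and Samd9l, an antiviral factor, of -0.36 to 0.36. A difference that did not pass is not shown to be absent at 2 arrays a group.

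Probes of the same gene did not always move together when each was fitted as a feature of its own. Of the 11 members with several kept probes, 6 (Adar, Gbp2, Ifit3, Irf1, Irgm1 and Usp18) had a dimmer probe that was lower in NIKtg Treg than in WT Treg (adjusted p under 0.05) while the brightest one did not pass. The share of such genes among all genes with several probes was not counted. Over all genes, 52.44% of the calls in Treg were higher with the brightest probes and 43.89% with every probe. In Tconv these shares were 42.91% and 50.19%, so the balance of calls moved over all genes too. Irgm1 shows how far probes of a member could differ. In Treg its brightest probe gave 0.24 (SE 0.13), another -0.05 (SE 0.12) and the dimmest, detected on 5 arrays, -1.96 (SE 0.27, adjusted p = 0.0038). In Tconv the same 3 probes gave -0.23, -0.67 (adjusted p = 0.0066) and 1.01 (adjusted p = 0.027). The dimmest probe of Usp18, detected on 6 arrays, gave -1.82 in Treg (adjusted p = 0.007) and 0.38 in Tconv, against 0.30 and -1.14 for its brightest.

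**Figure D5:**
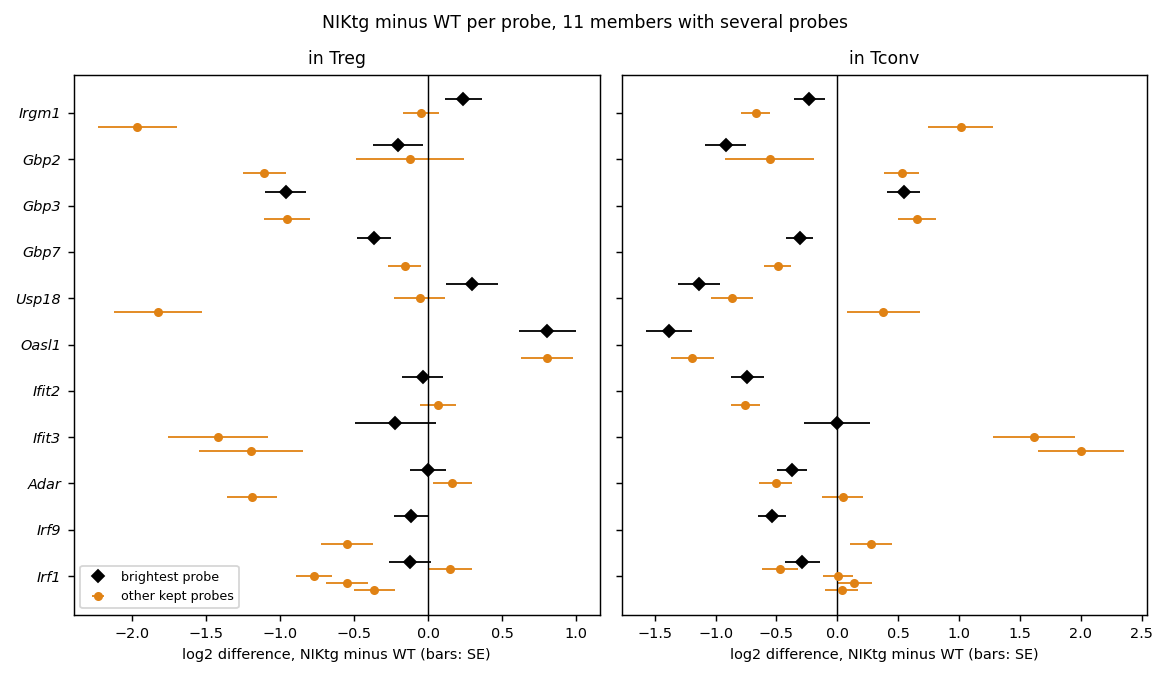
Log2 difference of NIKtg minus WT (bars, SE) for each kept probe of the 11 members with several, in Treg (left) and in Tconv (right). Diamonds are the brightest probe, used elsewhere, and circles the others. Probes of Gbp3, Oasl1 and Ifit2 lie together, while those of Irgm1, Usp18, Ifit3, Gbp2 and Adar lie apart.

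Ifit3 had dimmer probes, each detected on 3 arrays, that gave -1.19 and -1.42 in Treg and 2.00 and 1.62 in Tconv, where its brightest gave -0.22 and -0.01. Its near-identical copy Ifit3b could add to these signals. The dimmest probe of Gbp2, detected on 2 arrays, read 4.49 to 5.72, where the lowest detected signal of an array was 5.52 to 5.91. It gave -1.10 in Treg and 0.53 in Tconv (adjusted p = 0.03), the latter opposite to the call of the brightest probe. Both values rest on signals near background. By contrast both probes of Gbp3 agree within their SE, at -0.96 and -0.95 in Treg and 0.55 and 0.65 in Tconv. Both probes of Oasl1 gave 0.80 in Treg and -1.38 and -1.19 in Tconv, and both of Ifit2 gave -0.74 and -0.75 in Tconv. The positions of the probes in their transcripts are not given in the sources used here. Of the 3 immunity-related GTPases with the largest differences in Tconv, Igtp, Tgtp1 and Irgm2, each had 1 probe, so their values have no second probe to set beside them.

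Upstream of these genes, 12 of 16 listed interferons, receptors and signalling genes were tested. In NIKtg Treg against WT Treg, none was higher and 2 were lower, which at 16.67% was no more than the share of all genes (19.9%). Ifng, the gene of interferon-gamma itself, read 6.00 and 5.47 in NIKtg Treg, detected on 1 of these arrays, and 8.16 and 9.01 in WT Treg, at least 6.2-fold lower (adjusted p = 0.00347). Jak2, a kinase of its receptor, read 9.9974 and 10.32 in NIKtg Treg and 10.83 and 10.84 in WT Treg (-0.67, SE 0.15, adjusted p = 0.0219). In NIKtg Tconv against WT Tconv, 5 were higher and 1 lower, 50% of the 12 against 30.1% of all genes. Irf8 (0.74, SE 0.15, adjusted p = 0.0101), Jak2 (0.59, SE 0.15, adjusted p = 0.0237), Irf2, a factor that competes with Irf1 (0.47, SE 0.13, adjusted p = 0.0326), and Ifnar2, a chain of the type I receptor (0.33, SE 0.10, adjusted p = 0.0465), were higher, as was the kinase Tyk2 (0.40, SE 0.12, adjusted p = 0.0468). Ifngr2, a chain of the interferon-gamma receptor, read 9.93 and 10.53 in NIKtg Tconv and 10.94 and 10.78 in WT Tconv (-0.63, SE 0.20, adjusted p = 0.0485). Ifng read 9.39 and 9.18 in NIKtg Tconv and 8.25 and 9.23 in WT Tconv, where the groups overlapped (0.54, adjusted p = 0.303).

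Between the subsets, 4 of the 12 signalling genes were higher in WT Treg than in WT Tconv and none was lower (33.33%, against 24% of all genes). They were Ifngr1 (1.30, adjusted p = 0.0061), Irf8 (1.42, adjusted p = 0.000704), Socs1, the feedback inhibitor of JAK kinases (0.81, adjusted p = 0.0109), and Ifnar2 (0.66, adjusted p = 0.00399). Among NIKtg cells 4 were higher and 4 lower in Treg (66.67%, against 39.9% of all genes). Ifng was at least 10-fold lower in NIKtg Treg than in NIKtg Tconv (adjusted p = 0.00044), Jak2 was lower (-1.10, SE 0.15, adjusted p = 0.00141) and Socs1 higher (1.41, SE 0.16, adjusted p = 0.00063). The median difference of the 12 genes was 0.36 in NIKtg Tconv against WT Tconv, where that of the 32 interferon response genes was -0.33.

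Of 50 further interferon targets, 32 were tested. In NIKtg Treg against WT Treg 4 were higher and 3 lower, and in NIKtg Tconv against WT Tconv 4 were higher and 5 lower, with medians of 0.06 and -0.08. These shares (21.88% and 28.12%) and medians were near those of all genes (19.9% and 30.1%, 0.06 and -0.08). Ifitm3, a membrane protein that blocks virus entry, read 8.86 and 8.41 in NIKtg Treg and 6.62 and 6.60 in WT Treg (2.02, SE 0.15, adjusted p = 0.000611). It read 4.98 and 5.01 in NIKtg Tconv, below detection, and 6.86 and 6.82 in WT Tconv, at least 2.46-fold lower (adjusted p = 0.000342). Its direction was thus opposite in the subsets, as for Tgtp1 and Oasl1. Gbp11 followed, at least 1.74-fold higher in NIKtg Treg than in WT Treg (adjusted p = 0.00147) and at least 1.79-fold lower in NIKtg Tconv than in WT Tconv (adjusted p = 0.00101). Cxcl10, a chemokine for activated T cells, went the other way, at least 2.92-fold lower in NIKtg Treg (adjusted p = 0.00145) and at least 1.29-fold higher in NIKtg Tconv (adjusted p = 0.00923). Oas2, an oligoadenylate synthetase, was at least 4.22-fold lower in NIKtg Tconv than in WT Tconv (adjusted p = 0.00176). Ddx58, the RNA sensor RIG-I, was lower in NIKtg Treg (-0.70, SE 0.15, adjusted p = 0.0181). Tor3a was higher in NIKtg Tconv (0.86, SE 0.11, adjusted p = 0.00142).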

How the data were processed

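RNA of sorted CD4 T cells (RNeasy mini kit, Ambion MessageAmp Premier, per the labels' protocols) was read on 8 Illumina arrays, 2 per group. The deposited table holds unnormalized probe intensities from GenomeStudio 2010.1, per the submitters' processing notes, with a detection p-value per probe and array, per the file headers. The authors' normalized intensities were deposited beside it, on a scale that keeps the order of the unnormalized ones within an array. No genome build is given in the sources used here.

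Intensities were background-corrected with limma 3.58.1 in R 4.3.3 (nec, offset 16, negative controls inferred from the detection p-values), normalized by quantiles and log2-transformed from the deposited intensities. A probe was kept if its detection p was below 0.01 in 2 or more arrays, and the brightest probe stood for its gene, as named by GEO's platform annotation (23978 of 25697 probes named, 1719 not listed). Of a gene not detected in 1 group, the fold is given as a bound, from the lowest detected signal of each array. A linear model of the 4 groups was fitted over all 8 arrays (lmFit, eBayes, two-sided, Benjamini-Hochberg over 7926 genes, threshold 0.05), with contrasts for NIK in each subset, their difference and the subsets within each genotype. The number of arrays limits the precision. The procedure was tested on simulated data. Members and gene lists were chosen with earlier results of these data known, and all tested members are described. Genes named within the further lists and among the markers are those past the threshold or otherwise singled out after their values were seen. Arrays numbered alike were not treated as pairs, since the correlation of their deviations was -0.0189 to 0.1432 with 2 numbers only. Alternatives covered background offset, normalization, probe choice, filter, fit and leaving out each array.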

Additional observations from a re-analysis of the deposited data

Results flagged for a closer look

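The NIKtg minus WT difference in Treg and that in Tconv were set against each other in 1 test per gene (limma, Benjamini-Hochberg over 7926 genes). In the interferon lists 32 genes passed. They were 16 of 32 interferon response genes (50%), 5 of 12 signalling genes (41.67%) and 11 of 31 further targets outside the signalling list (35.48%). Of all genes tested 39.2% passed, so the shares of the signalling genes and further targets were near that of all genes. These values are the difference in Treg less that in Tconv, on the log2 scale, and a positive one means that NIKtg cells stood relatively higher in Treg. Among the GTPases they were 2.62 for Tgtp1, 1.81 for Igtp, 1.07 for Irgm2, 0.60 for Ifi47, 0.71 for Gbp2, -0.83 for Gbp2b and -1.51 for Gbp3. With median centring Irgm2 (0.69) and Ifi47 (0.34) did not pass. Gbp2b was below detection in all Tconv arrays, so its value rests on a level that was not measured there. Among the type I genes they were 2.19 for Oasl1, 1.505 for Oasl2, 1.43 for Usp18 (0.0135 in the mean over its probes), 1.30 for Zbp1, 1.10 for Sp100, 0.70 for Ifit2, -1.005 for Ifi35 and -1.07 for Isg15. The transcription factor Irf7 gave 1.32.

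Of the signalling genes, Ifng (-3.40), Jak2 (-1.27), Tyk2 (-0.81), Irf8 (-0.78) and Ifnar2 (-0.54) differed, each with a negative value. Of the further targets, Ifitm3 (3.87), Oas2 (2.95), Gbp11 (2.68), Slfn1 (1.89), Rtp4 (1.32), Lgals9 (0.71) and Ly6e (0.62) were positive, and Cxcl10 (-3.53), Oas1g (-1.30), Ddx58 (-1.05) and Tor3a (-0.78) negative. Of the genes with several probes, Gbp2 and Usp18 each had a probe past the threshold in the opposite direction. Adjusted p-values over the 32 genes lay between 0.000182 for Ifitm3 and 0.0454 for Gbp2. In Ifitm3, Gbp11, Oas2, Rtp4, Cxcl10 and Ifng at least 1 group held an array on which the gene was not detected, so the sizes depend on the background correction.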

How the results depend on the processing

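The number of the 32 genes past the threshold was 7 in Treg and 15 in Tconv for NIKtg against WT, 16 for the difference, 10 for WT Treg against WT Tconv and 17 for NIKtg Treg against NIKtg Tconv. Leaving out 1 array at a time gave 2 to 8, 7 to 16, 10 to 15, 3 to 11 and 12 to 18, in that order. Without arrays of the compared groups, the count fell past 1.5 times for NIKtg Treg 1 (3), WT Treg 1 (2) and WT Treg 2 (3) in Treg, NIKtg Tconv 1 (7) and WT Tconv 1 (8) in Tconv, NIKtg Tconv 1 (10) for the difference, and WT Treg 1 (3), WT Treg 2 (5), WT Tconv 1 (4) and WT Tconv 2 (6) among WT cells, where fewer samples were in the fit. Median centring gave 10 for the difference. Over all genes, WT Treg against WT Tconv gave 1252 calls with median centring and 1906 with quantile normalization. The fit with the replicate number as a block gave 7, 14, 17, 12 and 18, the authors' normalized intensities 10, 17, 18, 13 and 24, and the mean of probes 9, 13, 16, 12 and 19. Requiring every kept probe to pass in 1 direction, chosen after seeing the data, gave 7, 11, 14, 9 and 12.

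Some signs turned, and the cause was not tested. With the mean of probes, Irgm1 gave -0.59 in Treg, 0.037 in Tconv, -0.63 for the difference and -0.36 in NIKtg Treg against NIKtg Tconv, Gbp7 0.14, Irf9 -0.20 and Irf1 -0.22 for the difference, and Ifit3 0.22 in WT Treg against WT Tconv. With median centring, Trim25 gave -0.10 in Treg and -0.22 for the difference, Map3k14 -0.26 in Treg and -0.47 in NIKtg Treg against NIKtg Tconv, and Irf1 -0.11 for the difference. In NIKtg Treg against NIKtg Tconv it gave -0.062 for Irf1, -0.046 for Irgm1, -0.12 for Dhx58, -0.11 for Sp100, -0.043 for Irf7 and -0.40 for Nfkb2. Leaving out 1 array gave -0.31 to 0.061 for Irf1 in Treg, -0.14 to 0.030 for Gbp7 and -0.020 to 0.35 for Irf1 for the difference. Dim probes limit Gbp2b and Mx2, whose fold changes rest on signals near background.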
